A study of Schizosaccharomyces pombe with 8 samples.

Results

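The genes csr103, rsm1, ltc2, put2 and eta2 of the fission yeast Schizosaccharomyces pombe are described here as a set whose transcripts responded differently to the mating pheromones M-factor and P-factor. They were picked from the same measurements, as genes whose mean responses to the pheromones lay more than 1 apart on the log2 scale, that is more than 2-fold apart. Of 4751 named genes on the arrays, 4093 had a value on all 6 time course arrays, and 269 of these (6.57%) met that threshold, 118 (2.88%) with the larger response to M-factor and 151 (3.69%) with the larger response to P-factor. All 5 genes described here were among the 4093. Responses to the pheromones are therefore given below as a description without a test. Only the arrays that compared the cell types directly were not used in the choice. By the paper's account the 6 h one carried the RNA of the 6 h treatments, which the time course arrays also measured.

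The study hybridised 8 arrays. Of these, 6 time course arrays, 3 for each cell type, followed a culture of cells after the pheromone of the opposite mating type was added, and each compared the RNA of 2, 4 or 6 h with the 0 h RNA of the same culture. P cells (h+ Δmat2,::LEU2 cyr1::ura4+ ura4-D18) received M-factor and M cells (h- Δmat2,3::LEU2 cyr1::ura4+ ura4-D18 sxa2) received P-factor, both as synthetic peptides at 1 μg/ml in MSL minimal medium. On 2 further arrays M cells were set directly against P cells, before treatment and after 6 h with the respective pheromone. Both strains lack the adenylate cyclase gene cyr1, which lets them answer pheromone without being starved of nitrogen, and the M strain also lacks active sxa2, the protease that degrades P-factor. Pheromone, mating type and the state of sxa2 changed together between the courses and cannot be told apart there. Each array was a single hybridisation, so the 3 time points of a course stand in for replicates and share 1 untreated RNA.

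In fission yeast the pheromones are peptides that P and M cells release to find each other. Each binds a receptor on the opposite cell type, and both receptors feed the same MAP kinase cascade, at the end of which the transcription factor Ste11 switches on genes of mating and meiosis. A small number of genes, among them those for the pheromones and their receptors, are in addition under the control of the mating type locus.

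The 5 genes come from different corners of cell physiology. The product of csr103 (SPBC365.01) belongs to the Sec14 family, proteins that carry lipids between membranes, and rsm1 (SPCC1753.05) encodes an RNA export factor. The product of ltc2 (SPAC19A8.02, also listed as sip3) carries a pleckstrin homology domain. The gene put2 (SPBC24C6.04) encodes the Δ1-pyrroline-5-carboxylate dehydrogenase of proline breakdown, and eta2 (SPAC31G5.10) a protein of the Myb family. In the RefSeq annotation of assembly ASM294v3, ltc2 and eta2 lie on chromosome I, csr103 and put2 on chromosome II and rsm1 on chromosome III.

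Best matches to the Ste11 site upstream of 4 of the 5 genes were listed by the study, and they are shown because Ste11 is the factor at the end of the pathway that both pheromones use. The capitals mark the 10 bases of the listed site and the lower case letters its flanks.
eta2: aaagTTTCTTTGTTaatg
ltc2: tatgAACAAAGAACgaga
csr103: gttgAACACAGAAAtaat
rsm1: aagtTTTCTATGATaata
The study listed sites only for the genes it selected as pheromone-induced. The gene put2 is not among them, so whether it has such a site is not known here. How often such matches occur upstream of all genes was not counted. Set against the site AACAAAGAAA and the listed 10-base form TTTCTTTGTT of the other strand, eta2 had 0 mismatches. The sites of ltc2 and csr103 had 1 mismatch each, A10C in ltc2 and A5C in csr103, and rsm1 had 2, T6A and T9A, with positions counted from 1 at the 5′ end of the printed site. Of 161 listed genes with a best site of 10 bases, 34 had 0 mismatches, 67 had 1, 55 had 2 and 5 had 3 or more. The site of ltc2, the gene with the larger response to P-factor, thus had as many mismatches as that of csr103, which had the larger response to M-factor. A match of letters is a description and shows no binding.

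The larger response was to M-factor in P cells for csr103, rsm1, eta2 and put2, and to P-factor in M cells for ltc2. These 4 M-factor-biased genes were past 2-fold above untreated at all 3 M-factor times, as were 196 of 4615 genes (4.25%). With P-factor ltc2 alone of the 5 was past 2-fold at all 3 times, as were 133 of 4099 genes (3.24%). For each of the 5 the courses did not overlap, all 3 values of the higher course lying above all 3 of the lower. Among all 4093 genes this separation was found in the M-factor direction for 17.1% and in the P-factor direction for 16.1%. The choice of the genes favoured these counts, so they are no test.

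**Figure D1:**
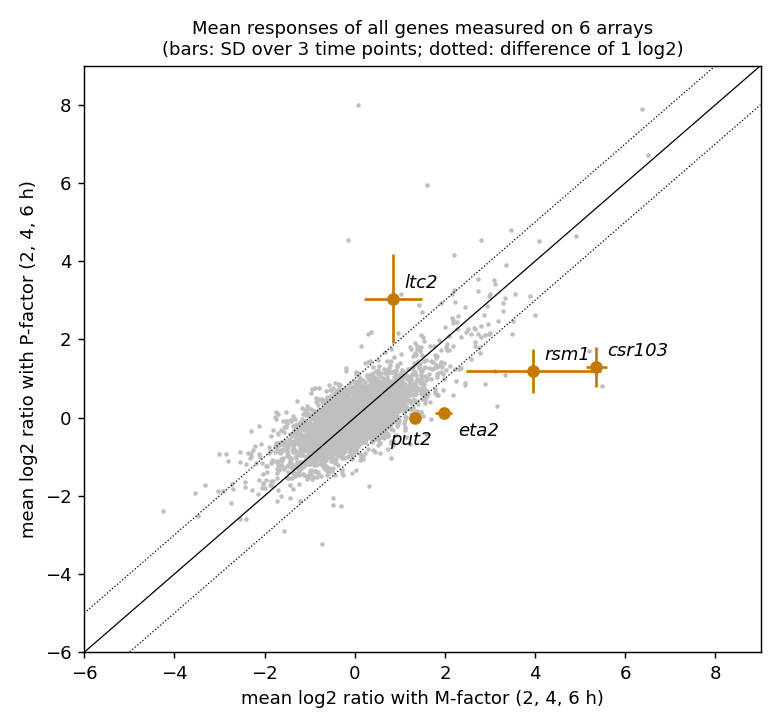
Mean log2 ratio with P-factor in M cells (vertical axis) against mean log2 ratio with M-factor in P cells (horizontal axis) for the 4093 genes with values on all 6 time course arrays (grey) and the 5 genes (orange, bars giving the SD over 3 time points). The dotted lines mark a difference of 1, and ltc2 alone of the 5 lies above the upper line, while csr103 lies farthest to the right.

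The lipid transfer family gene csr103 had the largest response of the set. With M-factor its log2 ratio was 5.49 at 2 h, 5.48 at 4 h and 5.08 at 6 h, a 45.1-fold, 44.7-fold and 33.9-fold rise over untreated P cells. With P-factor the log2 ratio was 0.74, 1.76 and 1.36 at these times. The M-factor values were level over the course, and the lowest of them stood 3.32 above the highest P-factor value. The means were 5.35 ± 0.23 for M-factor and 1.29 ± 0.51 for P-factor (SD, 3 time points), a difference of -4.07, or 16.8-fold. In the order of all 4093 genes from the most M-factor-biased, csr103 was number 2.

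The level course of csr103 hides a wide spread between its spots. The first spot read 4.89, 7.83 and 5.44 with M-factor and the second 6.10, 3.13 and 4.73, so that the spots stood 4.70 apart at 4 h, a larger gap than for 99.7% of genes on that array. With P-factor the first spot had no value at 2 h and read 1.65 and 1.39 at 4 and 6 h, while the second read 0.74, 1.87 and 1.33. Even the lowest M-factor spot, 3.13, was above the highest P-factor spot, 1.87. The side on which csr103 differed is thus the same in every spot, while the size of its 4 h response is poorly fixed.

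The RNA export factor gene rsm1 rose later. Its log2 ratio with M-factor was 2.23 at 2 h, 4.90 at 4 h and 4.74 at 6 h. With P-factor it was 0.55, 1.54 and 1.5. Both courses were lower at 2 h than at the later times, by 2.51 between 2 and 6 h of M-factor and by 0.95 over the P-factor course, and the courses did not overlap. The 2 h array of M-factor was also the only time course array with the treated RNA in Cy5, so for M-factor the time point and the dye cannot be told apart. The means were 3.96 ± 1.5 and 1.20 ± 0.56 (SD, 3 time points), a difference of -2.76 or 6.77-fold, and rsm1 was number 5 in the order of M-factor bias.

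The spots of rsm1 gave the same order. With M-factor they read 2.17, 5.15 and 3.81 for the first spot and 2.30, 4.64 and 5.68 for the second. With P-factor the first read 0.32, 1.26 and 1.33 and the second 0.79, 1.82 and 1.67. The lowest M-factor spot, at 2 h, lay above the highest P-factor spot, 1.82 at 4 h, and the widest gap between spots was 1.88 at 6 h of M-factor.

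The Myb family gene eta2 answered M-factor and stayed near its untreated level with P-factor. With M-factor its log2 ratio was 1.83, 2.19 and 1.89 at 2, 4 and 6 h, and with P-factor 0.02, 0.21 and 0.13. The means were 1.97 ± 0.19 and 0.12 ± 0.09 (SD, 3 time points), a difference of -1.85 or 3.61-fold. Its M-factor spots ran from 1.27 to 2.59 and its P-factor spots from -0.18 to 0.48, so all M-factor spots lay above all P-factor spots. Neither spot was the higher throughout, since at 2 h of M-factor the first read 1.27 and the second 2.40, and at 6 h the first read 2.45 and the second 1.34.

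The proline catabolic gene put2 had the smallest difference of the set and the smallest spread over time. The log2 ratio was 1.36, 1.45 and 1.23 with M-factor at 2, 4 and 6 h. With P-factor it was 0.05, -0.07 and -0.04. The means were 1.35 ± 0.11 and -0.02 ± 0.06 (SD, 3 time points), a difference of -1.37 or 2.58-fold, and put2 was number 34 in the order of M-factor bias. P-factor left put2 within 1.05-fold of untreated at each time.

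Single spots of put2 were less steady than these means. The first spot read 1.33, 2.01 and 1.44 with M-factor, had no value at 2 h of P-factor and read 0.55 and 0.21 at 4 and 6 h. The second read 1.39, 0.89 and 1.03 with M-factor, against 0.05, -0.69 and -0.29 with P-factor. All M-factor spots lay above all P-factor spots. With the spot nearer to 0 taken on each array in place of the mean, the difference was -0.81 and fell short of the threshold by which the genes were chosen.

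The pleckstrin homology domain gene ltc2 ran the other way. Its log2 ratio with P-factor was 3.04 at 2 h, 4.19 at 4 h and 1.91 at 6 h. With M-factor it was 1.45, 0.93 and 0.18. The M-factor response was thus 2.73-fold at 2 h and 1.13-fold at 6 h, and the P-factor response 18.3-fold at 4 h and 3.75-fold at 6 h. The means were 0.85 ± 0.64 for M-factor and 3.04 ± 1.14 for P-factor (SD, 3 time points), a difference of 2.19 or 4.57-fold, and ltc2 was number 4 of the 4093 genes in the order of P-factor bias. The lowest P-factor value was 0.46 above the highest M-factor value, the narrowest separation of the 5 genes.

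At the level of spots the courses of ltc2 overlapped. With P-factor the first spot read 4.24 at 2 h and 2.77 at 6 h and had no value at 4 h, while the second read 1.83, 4.19 and 1.04. The spots stood 2.41 apart at 2 h and 1.73 apart at 6 h, more than for 99.7% and 99.8% of genes on these arrays. With M-factor the first spot read 1.51, 1.04 and -0.29 and the second 1.39, 0.82 and 0.64, so the highest M-factor spot lay above the lowest P-factor spot. The 4 h value of ltc2 with P-factor, its highest, rests on a single spot.

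**Figure D2:**
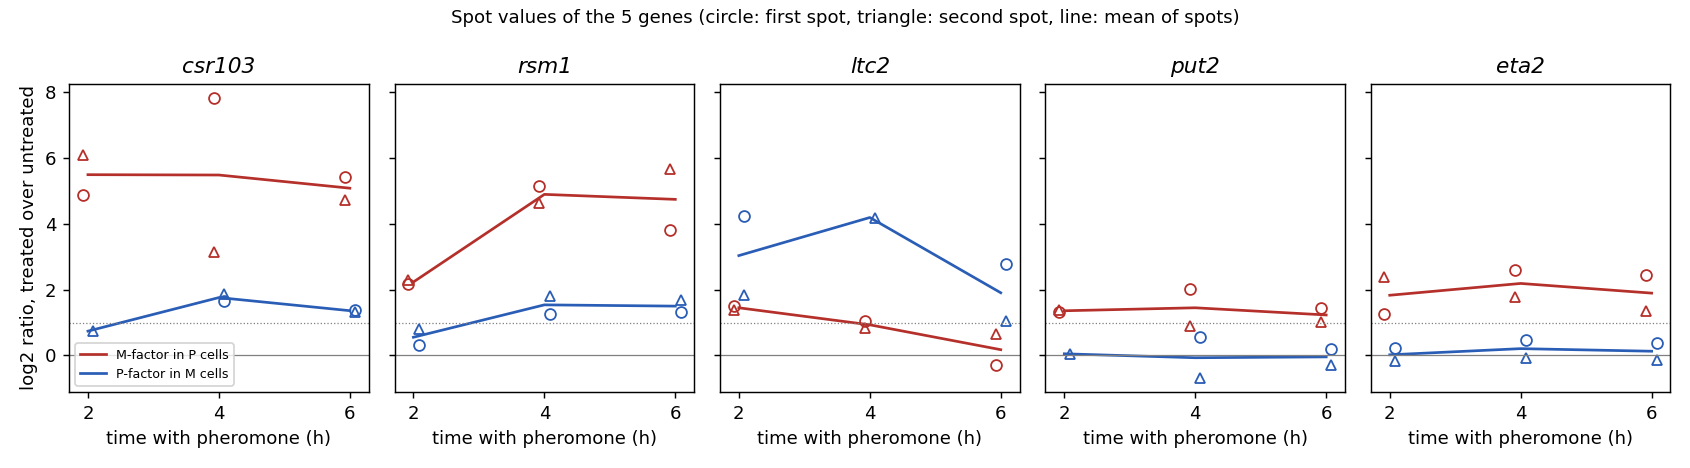
Log2 ratio of treated over untreated RNA (vertical axis) at 2, 4 and 6 h (horizontal axis) for each spot of the 5 genes, with M-factor in P cells in red and P-factor in M cells in blue; lines join the means of the spots and the dotted line marks 2-fold. The spots of csr103 stand 4.70 apart at 4 h of M-factor, and those of ltc2 stand 2.41 apart at 2 h of P-factor.

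Just inside the threshold lay png3, with a difference of 1.0001 (M-factor -0.62, P-factor 0.38), and ell1, with -1.0005 (0.79 and -0.21). Just outside lay SPBC8D2.16C, with 0.994 (-0.88 and 0.11), and spx2, with -0.999 (0.93 and -0.07). Of the 5 genes put2 was the nearest to it, at -1.37.

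The arrays of M over P cells set RNA of the cell types against each other on the same array, and their values had no part in the choice of the genes. By the paper's account the 6 h array used the RNA preparations of the 6 h treatments. It thus measured that RNA again and gives no separate culture. They had no replicate, so their values are given without a test. The direction M over P was taken from the sample titles and channels, and the series text names the M strain of this comparison h+. A table of the study heads the untreated values as P over M cells, but the M-cell genes mam1 and mam2 were above 0 and the P-cell genes map2 and map3 below 0. Their values were taken as natural logs, which is likely but not settled for the 6 h array. Before treatment csr103 read -1.09 and -0.97 on its spots, which put it 2.05-fold higher in P cells. Only 7 of 4751 genes (0.147%) were past 2-fold in that direction, and csr103 was number 7 of them. After 6 h its spots read -3.13 and -3.02, 8.42-fold higher in P cells, where 8 of 4751 genes (0.168%) were past 2-fold and csr103 was number 3. The ratio had thus moved by -2.04 toward P cells, and 19 genes (0.4%) shifted by over 2-fold that way. Read as log2, the 6 h array would give csr103 -2.13 and a shift of -1.10. On these arrays the spots of csr103 agreed within 0.12, unlike on the M-factor arrays.

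The other 4 genes stayed within 2-fold on both direct arrays, where 33 genes (0.695%) before and 13 (0.274%) after treatment were past 2-fold toward M cells. The spots of rsm1 read 0.35 and 0.33 before treatment and 0.25 and -0.07 after it. Those of eta2 read 0.40 and 0.54 before treatment and -0.17 and -0.09 after it, a shift of -0.60 toward P cells that was number 59 of 4751. For put2 the spots read -0.06 and 0.06 before and -0.35 and -0.16 after treatment. The spots of ltc2 read -0.22 and 0.04 before and -0.13 on both after treatment. The shift was -0.25 for rsm1, -0.25 for put2 and -0.04 for ltc2. All 4 M-factor-biased genes thus moved toward P cells, as did 48.9% of the 4597 genes compared. By its first spot alone rsm1 moved by only -0.10. The shift of ltc2 was near 0 and turned to 0.082 with the spot farther from 0.

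If the ratios of the time courses carried over, the 6 h array would have read the untreated ratio plus the difference between the responses at 6 h. For rsm1 this sum was -2.90 and the array read 0.09, a gap of 2.99 that 0.131% of 4597 genes exceeded. For ltc2 the sum was 1.64 and the array read -0.13, a gap of -1.77 exceeded in size by 0.935% of genes. For csr103 the sum was -4.75 against -3.07, for eta2 -1.30 against -0.13 and for put2 -1.28 against -0.25. In all 5 the direct array gave the smaller difference between the cell types, and the median gap over all genes was 0.35 in size. Some cell-type markers also read a smaller difference on the direct array, with gaps of -3.95 for mam2, -3.91 for sxa2, 2.96 for map2, 2.07 for SPAC1565.03 and -1.97 for mam1. The marker map3 went the other way, with a sum of -1.17 and a reading of -3.53, a gap of -2.36. The remaining markers had smaller gaps, -0.77 for SPAC11H11.03C, -0.70 for cwp1, -0.63 for mam3, 0.14 for mam4 and 0.05 for map4. What moved the values apart was not tested.

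Genes with a bias in the time courses mostly shifted in its direction on the direct arrays, but by little. As the 6 h RNA was shared with the time courses, these shares are no independent evidence of the bias. Of 186 genes whose 6 h ratio was over 2-fold higher in the M-factor course, 130 (69.9%) shifted toward P cells on the direct arrays, and 11 (5.91%) by over 2-fold, with a median shift of -0.09. Of 185 genes with the opposite bias, 134 (72.4%) shifted toward M cells and 5 (2.7%) by over 2-fold, with a median shift of 0.11. Over all 4597 genes compared, 48.9% shifted toward P cells and 51.1% toward M cells, with 18 (0.392%) and 6 (0.131%) past 2-fold. In this company csr103 was among the few genes with a shift past 2-fold, and rsm1, ltc2, put2 and eta2 were among the many that moved by less than 2-fold.

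**Figure D3:**
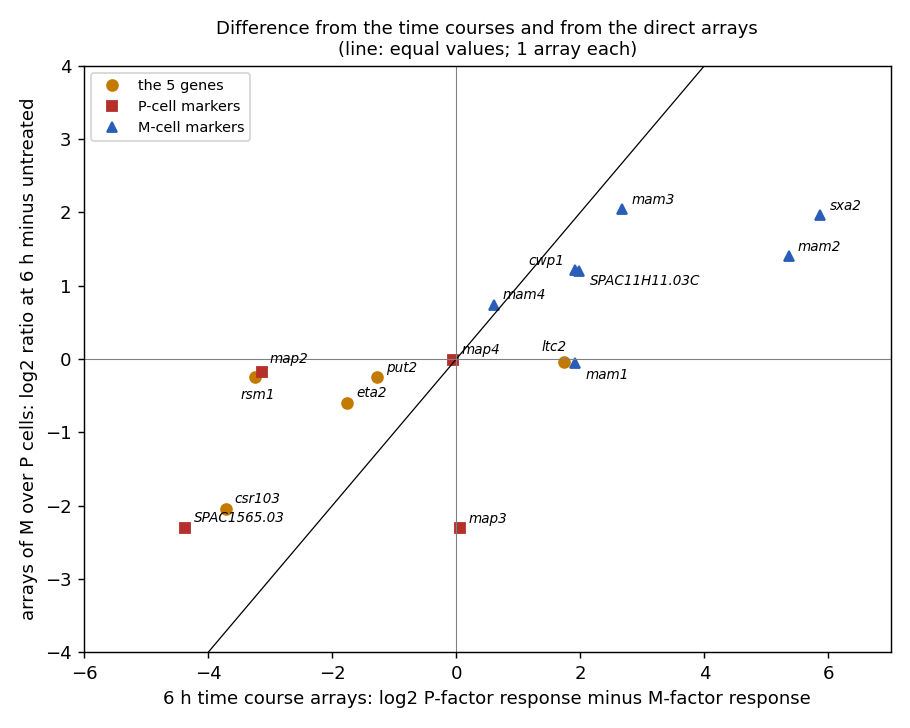
Shift of the log2 ratio of M over P cells between the untreated and the 6 h array (vertical axis) against the log2 response to P-factor minus that to M-factor on the 6 h time course arrays (horizontal axis), for the 5 genes, the P-cell markers and the M-cell markers, from 1 array each. csr103 shifted by -2.04 beside SPAC1565.03, while rsm1 (-0.25) and ltc2 (-0.04) lie near 0 on the vertical axis.

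Genes specific to a cell type set the scale for this comparison. The list of P-cell genes with spots used here held map2 (the P-factor gene), map3 (the M-factor receptor), map4 (the P-cell adhesin) and SPAC1565.03. That of M-cell genes held mam1, mam2, mam3, mam4, sxa2, cwp1 and SPAC11H11.03C. The study had chosen some of them on these same arrays, so their direction is no independent evidence. On the 6 h array map3 read -3.53, map2 -3.12, SPAC1565.03 -2.89 and map4 0.06, while the 7 M-cell genes read from 1.15 for cwp1 to 3.05 for mam2, the P-factor receptor. With -3.07, csr103 lay among map3, map2 and SPAC1565.03, while the other 4 of the set read from -0.25 to 0.09. By the paper's account its arrays missed map4, which real-time PCR showed to be P-specific. The 0.06 of map4 is therefore no reference for P-cell expression. The 4 remaining genes past 2-fold toward P cells after treatment were adh4 (-1.97), mug37 (-1.83), vps5 (-1.74) and SPBC25B2.08 (-1.14). Among the markers themselves mam1, which exports M-factor, had mean responses of 1.02 to M-factor and 3.17 to P-factor, and a shift of -0.05 on the direct arrays, close to ltc2. Unlike ltc2, it was higher in M cells on both direct arrays, at 2.15 and 2.09.

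The profiles most like those of the 5 genes were sought by Euclidean distance over the 6 time course arrays among the 4093 genes. For csr103 the nearest was SPAC1565.03, at 0.96 against a median distance of 9.67 to all genes. Its log2 ratios were 5.47, 5.67 and 5.31 over the M-factor course and 0.52, 0.98 and 0.93 over the P-factor course, and it read -0.59 before and -2.89 after treatment on the direct arrays. The next were rsm1 (3.35) and SPBC146.02 (3.59), far more distant than SPAC1565.03. For rsm1 the nearest were the ferric reductase gene frp1 (1.93), knh4 (2.33) and mug37 (2.57), against a median of 7.61. Of these, mug37 averaged 3.32 for M-factor and 1.10 for P-factor and, unlike rsm1, was past 2-fold toward P cells after treatment.

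For ltc2 the nearest profiles were those of the meiotic recombination gene rec27 (1.91), mam1 (1.99) and sec18 (2.32), with a median of 5.89 over all genes. The means of rec27 were 1.42 for M-factor and 2.87 for P-factor, and like ltc2 it peaked at 4 h of P-factor, at 4.02. The vesicle fusion gene sec18 read 4.59 at 4 h of P-factor but 1.42 and 0.46 at 2 and 6 h. For put2 the nearest were SPAC14C4.04 (0.51), the xylulose kinase gene xks1 (0.53) and SPCC18.02 (0.58), with a median of 2.63. For eta2 they were again xks1 (0.88), then whi5 (0.97), whose budding yeast counterpart holds back entry into the cell cycle, and mug14 (0.98), with a median of 3.64. The means of xks1 were 1.47 for M-factor and 0.15 for P-factor, the M-factor mean lying between those of put2 and eta2.

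The array spots are double-stranded PCR products and do not tell the strands apart, so transcripts of the genes next to each member were compared with it. Beside csr103, SPBC557.05 averaged -1.07 for M-factor and 0.09 for P-factor, and cox10, whose annotated span overlaps that of csr103, had -0.62 and 0.18. Both neighbours of csr103 were thus below untreated with M-factor, where csr103 rose. Beside eta2, the MAP kinase gene spk1 averaged 3.52 for M-factor and 2.48 for P-factor, while pac2, a repressor of ste11, had -0.82 and -0.79. The spk1 response exceeded that of eta2 with both pheromones, and its difference between them, -1.04, passed the test only with the time point as a block (limma, adjusted p = 0.0891 without and 0.043 with it).

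Beside put2, SPBC24C6.03 averaged 0.34 for M-factor and -0.05 for P-factor, and sec28 had -0.38 with M-factor and -0.55 and -0.42 at 4 and 6 h of P-factor. Beside rsm1, tol1 had a mean of 0.58 with M-factor and a single P-factor value, -2.09 at 4 h. The overlapping gene tco89 had -0.02 with M-factor and a single P-factor value, 0.31 at 6 h. Beside ltc2, ymr1 had no time course value, and the only value of sec73 was 3.16 at 2 h of P-factor. The P-factor response of ltc2 could therefore not be set against that of its neighbours over the course.

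**Figure D4:**
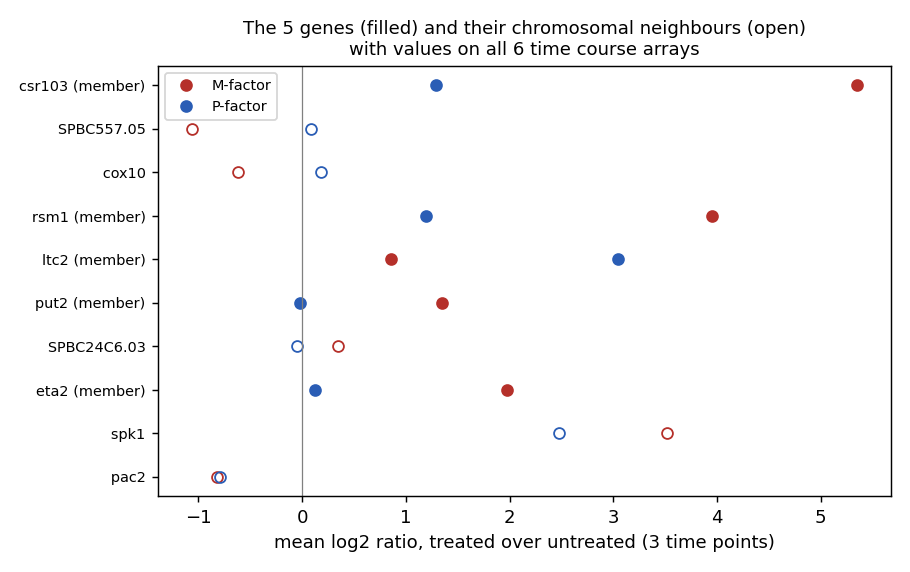
Mean log2 ratio over 3 time points (horizontal axis) with M-factor (red) and P-factor (blue) for the 5 genes (filled) and those of their chromosomal neighbours that had values on all 6 time course arrays (open). csr103 stands at 5.35 with M-factor beside neighbours at -1.07 and -0.62, and eta2 at 1.97 beside spk1 at 3.52 and pac2 at -0.82.

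The pathways and families of the 5 genes were counted next, from lists of their other members. With limma on all 4093 genes and Benjamini-Hochberg adjustment at 0.05, 24.1% of genes were called higher and 23.2% lower with M-factor, and 18.1% higher and 18.3% lower with P-factor. The difference between the pheromones was called for 2.57% in the P-factor direction and 2.08% in the M-factor direction, 190 genes in all. That count fell to 47 without the 4 h M-factor array and to 17, 13 and 16 without the 2, 4 and 6 h P-factor arrays, and it rose to 296 without the 2 h M-factor array. The single calls of a difference below rest on it.

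Most other genes of proline and glutamate metabolism were lower with M-factor, where put2 was higher. Of 10 tested, limma called 0 higher and 8 lower with M-factor, and 1 higher and 5 lower with P-factor. At an unadjusted p under 0.05 limma had 1 of the 10 higher with M-factor, and the methods' test had 0. The 8 M-factor calls fell to 4 with the spot nearer to 0 or the first spot alone, and to 1 when tested against a 1.5-fold change. With an array left out they stayed at 7 or more. The 6 P-factor calls fell to 2 without the 4 h and 3 without the 6 h P-factor array. Their median was -0.84 for M-factor and -0.50 for P-factor, beside -0.02 for all genes with each. The first gene of the proline breakdown pathway, put1, had means of 0.46 ± 0.35 and -0.18 ± 0.33 (SD, 3 time points) and was not called (limma, adjusted p = 0.062 and 0.475). With the time point as a block it was called higher with M-factor (limma, adjusted p = 0.0247), the same direction as put2. The list gene put4 went the other way, at -2.27, -2.83 and -5.79 over the M-factor course. With P-factor put4 read -2.06 and -3.08 at 4 and 6 h, and it was not tested for want of a 2 h value. The proline synthesis genes pro1, pro2 and pro3 fell with M-factor, with means of -1.04, -1.02 and -0.63. The glutamine synthetase gene gln1 fell with both pheromones, with means of -1.99 and -1.80 (limma, adjusted p = 8.25e-05 and 0.000224). The pheromones differed for 1 of the 10, the glutamate dehydrogenase gene gdh1, at -0.35 for M-factor and 0.73 for P-factor (limma, adjusted p = 0.0407, and 0.0433 to 0.161 with each array left out).

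The Sec14 family had 3 other members tested, spo20, csr101 and csr102. With M-factor 1 was called higher, csr102 with a mean of 0.84, and 1 lower, spo20 with -0.51, and with P-factor csr102 was called at 0.53. The last call was lost when each P-factor array in turn was left out (limma, adjusted p = 0.0863, 0.123 and 0.0984), and the number called with M-factor fell from 2 to 1 without the 4 h M-factor array. By limma 0 of the 3 were called for a difference, and 1 at an unadjusted p under 0.05. The largest of these differences was 0.58, for spo20, beside -4.07 for csr103. The 10 lipid transfer and membrane contact genes tested beside ltc2 had medians of 0.00 with both pheromones, 3 called higher and 1 lower with M-factor and 2 higher and 3 lower with P-factor. The 4 M-factor calls fell to 2 without the 4 h or the 6 h M-factor array, and the 5 P-factor calls to 1 without the 4 h P-factor array. A difference was called for 0 of these 10 by limma, and at an unadjusted p under 0.05 for 1 in the P-factor direction and 2 in the M-factor direction. The closest relative by name, ltc1, had means of 0.15 and 0.03.

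Of 14 mRNA export genes tested beside rsm1, 3 were called higher and 4 lower with M-factor, and 4 higher and 6 lower with P-factor. The 7 M-factor calls fell to 3 without the 4 h M-factor array and to 4 without the 6 h P-factor array, and the 10 P-factor calls to 6, 3 and 3 without the 2, 4 and 6 h P-factor arrays. The differences called, 2 of 14, ran against that of rsm1. The gene nxt1, for the partner of the export receptor Mex67, had -0.43 for M-factor and 0.90 for P-factor, and tho2, of the THO complex, had -0.61 and 0.48 (limma, adjusted p = 0.017 and 0.0272). With each array left out these became 0.0194 to 0.0968 for nxt1 and 0.0261 to 0.138 for tho2. By unadjusted p under 0.05 limma had 2 of the 14 higher with P-factor and 1 higher with M-factor, as rsm1 was. The median difference of the 14 was -0.08, near 0. A further export gene, crp79, was not tested for want of a 2 h P-factor value. It averaged 0.14 for M-factor and -0.76 for P-factor, the direction of rsm1. Of 6 Myb and SANT domain genes tested beside eta2, 1 was called higher and 1 lower with M-factor and 1 lower with P-factor. The P-factor count was 2 with the time point as a block or without the 6 h M-factor array, and 0 without the 4 h or the 6 h P-factor array, and the M-factor count was 1 without the 4 h M-factor array. The telomere protein gene taz1 was the 1 gene of these 6 called for a difference, with 0.19 for M-factor and -0.61 for P-factor (limma, adjusted p = 0.044, and 0.0547 to 0.172 with each array left out).

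Known targets of both pheromones were compared last. Of 9 tested, among them fus1, ste11, spk1, mei2 and rep1, limma called 9 higher for each pheromone, and it called 0 for a difference. At an unadjusted p under 0.05 limma had 2 of the 9 higher with M-factor than with P-factor. By size alone 1 of the 9, spk1 at -1.04, met the threshold by which the 5 genes were chosen. Their median responses were 2.98 and 2.14, and their median difference was -0.30. The means of csr103 and rsm1 with P-factor, 1.29 and 1.20, lay below the lowest of these 9 genes with P-factor, ste4 at 1.37. Their means with M-factor, 5.35 and 3.96, lay above the highest with M-factor, rep1 at 3.90. For rsm1 that margin was far within the spread, with an SD of 1.5 over 3 time points for rsm1 and for rep1. At 6 h of M-factor rep1 read 5.62, above the highest rsm1 value of 4.90. For ltc2 the P-factor mean of 3.04 lay within the range of these targets and the M-factor mean of 0.85 below it. A further target, cgs2, was not tested for want of a 2 h P-factor value, and its 0.95 and 0.76 at 4 and 6 h of P-factor lay below the values of csr103 and rsm1 at these times.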

How the data were processed

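RNA was hybridised on 2-colour arrays of PCR products, mostly 2 spots per gene. The authors scanned the arrays, quantified them with Imagene 4.2 and normalised each by lowess in GeneSpring. For the first 2 M-factor times (2 and 4 h) the authors deposited log2 ratios of channel 1 over channel 2. The other 6 arrays were deposited as natural log ratios. These bases were not stated. They were settled against listed mean fold changes, which they met within 2% for 151 of 155 entries with M-factor, 118 with P-factor and 155 for untreated M over P cells; the other combinations met at most 52. That list has no column for the direct array of 6 h, whose base is likely but not settled. No intensities were used here, so signal over background is unknown; precision is limited by how few arrays there are. All values were converted to log2 and the spots of a gene averaged. Array medians lay between -0.03 and 0.04, and the median SD between spots was 0.19 to 0.34 in the time courses and 0.07 on the direct arrays. Only the 9522 of 11520 spots with 1 gene symbol were used. Treated RNA was in Cy3 on all time course arrays except the M-factor 2 h array, and M-cell RNA was in Cy3 on the direct arrays, so a dye effect on a gene was not tested.

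Means over 2, 4 and 6 h and their difference were fitted with limma 3.58.1 in R 4.3.3 on 4093 genes and adjusted by Benjamini-Hochberg at 0.05. The labels give no separate cultures for the time points, so p-values include changes between times and do not cover the spread of the shared untreated RNA. Same-time arrays deviated together from the means of their courses (r = 0.35, 0.10 and 0.35 at 2, 4 and 6 h, against -0.33 to 0.04 between times). Arrays were therefore treated as paired by time in the blocked fit, which was run as an alternative. Counts and p-values are from the fit without the block unless the block is named. On simulated data of 4093 genes the P-factor minus M-factor test recovered 50 of 100 genes changed 2-fold and 91 of 100 changed 4-fold, with 8 false calls. The simulated noise was independent between arrays, without a shared untreated RNA, pairing by time or a time trend. These rates therefore need not hold for the real arrays.

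The 5 genes and the gene lists were chosen with earlier results of these data known. Other genes were named by a rule. For each of the 5 it takes the 3 nearest profiles and the chromosomal neighbours. It also takes the 2 genes nearest the threshold on each side and up to 4 genes of each list. Those are the genes with the largest differences between the pheromones, and all mating type markers are added. Not all of these were named, and nup97, ste7, tcb3, scs22 and ada2 were among those left out. The markers SPAC3F10.09 and mat1-Mc had no spot used here. Outside that rule, csr101, ltc1, put1, pro1, pro3, gln1, npp106, bdp1, cgs2, ste4, ste11, fus1, mei2, rep1 and the genes past 2-fold toward P cells were named after their values were seen. Alternatives changed the log base, the use of spots, centring, scale, arrays, block and test; the choice of a single spot was added after seeing the data.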

Additional observations from a re-analysis of the deposited data

Results flagged for a closer look

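The difference between the responses to P-factor and M-factor was tested for the listed genes other than the 5, and 12 of them passed (limma, adjusted p at most 0.05). Among cell-type markers, on the log2 scale, P-factor minus M-factor was 7.92 for sxa2 (adjusted p = 0.00052), which is inactivated in the M strain, 4.70 for mam2 (adjusted p = 0.00138), 4.34 for mam3 (adjusted p = 0.0225, up to 0.0599 with each array left out) and 2.15 for mam1 (adjusted p = 0.00415). It was 1.83 for cwp1 (adjusted p = 0.00565) and 1.69 for SPAC11H11.03C (adjusted p = 0.0049) in the limma fit. Toward M-factor it was -4.67 for SPAC1565.03 (adjusted p = 1.24e-05) and -2.87 for map2 (adjusted p = 0.00174). In the lists around the 5 genes it was 1.33 for nxt1 (adjusted p = 0.017), 1.09 for tho2 (adjusted p = 0.0272), 1.08 for gdh1 (adjusted p = 0.0407) and -0.81 for taz1 (adjusted p = 0.044). The study had chosen SPAC1565.03, mam3, cwp1 and SPAC11H11.03C on these arrays. The time points stand in for replicates in these tests.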

How the results depend on the processing

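In the 16 other settings run for each of the 5 genes, the difference of P-factor minus M-factor kept its sign. Leaving out each array gave -4.30 to -3.79 for csr103, -3.62 to -2.29 for rsm1, 1.62 to 2.76 for ltc2, -1.42 to -1.32 for put2 and -1.92 to -1.74 for eta2. All columns as natural log gave -5.69 for csr103, -1.78 for put2 and -2.44 for eta2, and all as log2 gave -1.23 for put2, -1.70 for eta2 and 1.28 for ltc2, from 2.19. The spot nearer to 0 gave -3.01, -0.81 and -1.59 for csr103, put2 and eta2, and the farther spot -5.12, -1.92 and -2.12. The first spot alone gave -4.53 for csr103 and -1.21 for put2, the second -3.34 for csr103 and 1.40 for ltc2. A common interquartile range gave -3.44, -1.24 and -1.66 for csr103, put2 and eta2.

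Of the 4093 genes, 151 lay past the threshold in the P-factor and 118 in the M-factor direction. These counts were 319 and 260 with natural log throughout, 61 and 60 with the nearer spot, 374 and 279 with the farther spot, 62 in the M-factor direction with the first spot, and 141 to 204 and 100 to 174 with an array left out.

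The 1933 genes called with M-factor became 1040 with the nearer spot, 901 and 1264 with the first and second spot, 421 against a 1.5-fold change, 324 by the methods' test at its threshold and 5 after Benjamini-Hochberg, and 1527 to 2026 with an array left out. The 1491 called with P-factor became 689 with either single log base, 847 with the nearer spot, 540 with the first spot, 208 against 1.5-fold, 492 and 6 by the methods' test, and 541 to 1669 with an array left out (541 without 4 h and 718 without 6 h of P-factor). The 190 genes called for the difference became 72 with either single base, 33 and 87 with the nearer and farther spot, 9 and 10 with the first and second spot, 10 against 1.5-fold, and 13 to 296 with an array left out. The 38 list members called with M-factor became 22 with the nearer spot, 23 with the first spot, 13 against 1.5-fold, 11 and 0 by the methods' test, and 28 to 39 with an array left out. The 41 called with P-factor became 27 with either single base, 21 with the first spot, 17 against 1.5-fold, 16 and 0 by the methods' test, and 22 to 42 with an array left out. With the time point as a replicate block the counts called were 2153, 1713 and 273, within 1.5 times. The block also changed calls not given above for pro1 with P-factor (adjusted p = 0.0208), npp106 with M-factor (0.0473), bdp1 with P-factor (0.0488) and the differences of pro2 (0.0492) and tcb2 (0.0495) in limma, and no other call of a gene in the lists.

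Read as log2, the direct arrays gave csr103 -0.72 untreated (within 2-fold) and -2.13 at 6 h, with a shift of -1.42, or -1.10 with only the 6 h array so read. So read, rsm1 gave 0.24 and eta2 0.32 untreated, the shift of eta2 was -0.41, and 16 in place of 40 genes were past 2-fold untreated. The nearer or second spot gave rsm1 -0.069 at 6 h, ltc2 0.040 and put2 0.056 untreated. Centring gave put2 0.015 untreated, and the shift of ltc2 was 0.082 with the farther and 0.086 with the first spot. Of single genes, the M-factor mean of glt1 turned to 0.31 with the nearer spot. The causes were not tested.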
